A study of Homo sapiens with 17 samples.

Results

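The mitochondrial ribosomal proteins were followed gene by gene through RNA-Seq and Ribo-Seq profiles of human BJ fibroblasts that were proliferating, quiescent, pre-senescent, senescent or transformed. Members were taken by symbol, as every gene whose name begins with MRPL or MRPS followed by a number, and 73 of the 9699 genes in the table met this rule, 45 named for the large subunit and 28 for the small subunit. MRPL12, MRPL30 and MRPS17 were not analysed here. Most members stood lower in translation efficiency (TE, the log2 Ribo-Seq level minus the log2 RNA level) in every altered condition than in proliferating cells, with a median difference of -0.36 in quiescence, -0.60 in the pre-senescent state, -0.55 in senescence and -0.38 after transformation. The corresponding medians over all genes were -0.05, -0.13, -0.03 and -0.07.

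Mitochondrial ribosomes sit in the mitochondrial matrix and translate the few messenger RNAs of the mitochondrial genome, which encode core subunits of the respiratory chain and the ATP synthase. Their RNA comes from the mitochondrial genome, whereas all of their proteins are encoded in the nucleus, translated by cytosolic ribosomes and imported. Ribo-Seq of cytosolic ribosomes therefore reads the production of these proteins and not the activity of the mitochondrial ribosome itself. Some members have a counterpart in the bacterial ribosome and the rest arose in the mitochondrial lineage.

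BJ cells are human foreskin fibroblasts, and all cultures were immortalized with telomerase (hTERT). Proliferating cells were grown under normal conditions, and quiescence was induced by withdrawal of serum. Cells carrying hTERT and a tamoxifen-inducible RASG12V, an activated oncogene, received 4-OHT-tamoxifen for 5 days (pre-senescent) or 14 days (senescent). Transformed cells carried hTERT, a knockdown of p16INK4A, a further knockdown not described here, SV40 small T and a retroviral pBabe-puro-RASG12V, so the effects of these alleles cannot be told apart in them. Of the 17 libraries, the table gives 12 columns of FPKM (fragments per kilobase, scaled to the mapped reads of the library), 6 for each assay. Of these, 5 combine replicate libraries and 7 hold 1 library each, so no difference below has a replicate test. The study profiled quiescent and pre-senescent cells in a first sequencing run and senescent and transformed cells in a second, and each was set against the proliferating column of its own run. FPKM is a share of a library of bulk RNA, so fewer cells in a given state and less RNA per cell cannot be told apart.

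The Ribo-Seq samples titled S.rp and C3.rp each carry the condition label of the other, and their columns were used by title. By title, Pearson's r of the RNA and Ribo-Seq differences between senescent and proliferating cells was 0.83 over all genes. Exchanging the columns would reverse the sign of this r. With the columns by title MKI67, a marker of cycling cells, stood at 43.97 FPKM in RNA and 43.02 in Ribo-Seq in the run 2 proliferating cells and at the floor of 1.0 in both assays in senescent cells. CDKN1A, an inhibitor of the cell cycle, stood at 171.63 FPKM in RNA and 222.83 in Ribo-Seq in proliferating cells and at 814.41 and 547.83 in senescent cells. Both of these genes moved the same way in both assays. CDKN2A, the gene of p16INK4A, did not, with 6.75 FPKM in RNA in proliferating cells of run 2, 27.94 in senescent and 12.64 in transformed cells, and 8.92, 6.33 and 5.51 in Ribo-Seq. In transformed cells, which carry the knockdown, its RNA was therefore higher and its Ribo-Seq level lower than in proliferating cells. HRAS RNA was 2415.28 and 1283.52 FPKM in the proliferating columns and 311.51 in transformed cells, although the labels name no RAS construct for proliferating cells. All 8 fibroblast markers were in the table with a summed RNA level of 4992 to 7309 FPKM, against 105 to 313 for the 3 epithelial markers found. VIM alone gave 2955.66 to 4881.25 FPKM of the fibroblast sum, which therefore does not show that each marker held steady. In senescent cells VIM was the only one of the 8 above its run 2 proliferating level. COL1A1 RNA was 371.15 and 1328.21 FPKM in the proliferating columns and 51.57 in senescent cells.

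The pair of proliferating columns gave the only measure of spread between cultures of the same condition, with culture and run differences together. The study lists the RNA-Seq libraries of run 1 as paired-end and those of run 2 as not. It also found lower reproducibility between runs than within a run, which was its reason for using controls of the same run. This spread therefore includes a batch and library difference, and is not that of cultures alone. Between run 2 and run 1 the median member differed by -0.43 in RNA, -0.39 in Ribo-Seq and -0.01 in TE (all genes -0.05, 0.00 and 0.02). In RNA 18 members were at least 1.5-fold lower in the run 2 column (0.58 on the log2 scale, 14.1% of all genes), and in Ribo-Seq 26 were lower (20.3%) and 4 higher (21.0%). The member quartiles of the TE difference were -0.27 and 0.32. In TE, 8 members were at least 1.5-fold lower (11.9%) and 10 at least 1.5-fold higher (16.0%) in the run 2 column. The median RNA difference between the control columns was thus as large as that of any of the 4 conditions, and the median Ribo-Seq difference was larger than that of every condition except quiescence (-0.59), while the median TE differed little.

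Short windows at the annotated transcription start are shown for the members with the lowest and the highest TE difference in quiescence among those with a RefSeq promoter entry, leaving out MRPL33, whose RNA was at the floor in this run, since the cytosolic ribosomal protein messages are known for a pyrimidine tract (the TOP motif) that begins at this base and through which mTOR signalling controls their translation. Each window runs from 10 bases before to 20 bases from the first start listed by RefSeq (GRCh38.p14), read 5′ to 3′ on the strand of the gene, and thus covers the promoter edge and the beginning of the first exon. Capitals mark a C followed by at least 4 further pyrimidines that lies wholly between 5 bases before and 10 bases from the start. MRPL11 (chr11:66438829-66438858, minus strand), MRPL18 (chr6:159789802-159789831, plus strand), MRPL1 (chr4:77862820-77862849, plus strand) and MRPS25 (chr3:15065296-15065325, minus strand) are members of low TE difference, from -0.87 to -0.73.
MRPL11: ctagcctaacgtgaggacccttgacctctg
MRPL18: atgttggaccgctgggaagaggttgaacct
MRPL1: tttcgtgaacgcaatccggagtgcccaaca
MRPS25: gtgcgtctgcgcgggaagtggaacctggct
MRPL49 (chr11:65122173-65122202, plus strand), MRPS18C (chr4:83456048-83456077, plus strand), MRPL37 (chr1:54200157-54200186, plus strand) and MRPL50 (chr9:101398599-101398628, minus strand) are the members of highest TE difference, from 0.30 to 0.36.
MRPL49: gtgtcacgtcactgctgagcgaccgcgcgg
MRPS18C: aacgaaaggaagtggaagaaacgcggaacc
MRPL37: ggcgcccggtctcattcgttcccagcaggc
MRPL50: tgaaggctgcgctcaggcccgtggatctca
RPL34 (chr4:108620566-108620595, plus strand) and RPS6 (chr9:19380217-19380246, minus strand) are cytosolic ribosomal proteins shown for comparison, with TE differences in quiescence of -1.45 and -1.13.
RPL34: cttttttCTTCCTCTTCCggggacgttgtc
RPS6: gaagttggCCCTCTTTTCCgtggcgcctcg
None of these 8 members held the tract wholly within those bases of the start shown, while both cytosolic genes did. The ccctt of MRPL11 begins inside them and runs past their end, so it was not counted. Counting a gene if any of its listed starts held the tract on the gene's own strand, 16 of the 64 members with an entry had it, against 2194 of 7292 genes of the table (30.1%), 54 of 66 cytosolic ribosomal proteins (81.8%) and 13 of 47 respiratory chain subunits (27.7%). Members with and without the tract had median TE differences of -0.38 and -0.32 in quiescence, -0.61 and -0.54 in pre-senescence, -0.46 and -0.58 in senescence and -0.18 and -0.31 after transformation. In the first 2 of these conditions members with the tract stood slightly lower and in the other 2 slightly higher. MRPL2, MRPL10, MRPL13, MRPL15, MRPL21, MRPL23, MRPL35, MRPS28 and MRPS36 had no entry.

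In proliferating cells of run 1 the members spanned 1.00 to 142.09 FPKM in RNA with a median of 31.21, and 15.92 to 400.03 FPKM in Ribo-Seq with a median of 71.45. The medians of all genes were 13.62 and 16.32. MRPS24 (142.09 FPKM), MRPL37 (107.13) and MRPL20 (95.06) had the highest RNA levels. The Ribo-Seq order was different, with MRPL17 (400.03 FPKM), MRPS21 (335.28) and MRPL52 (326.08) at its head. Members of a complex built from equal copies of nearly every protein thus differed widely in both assays, although transcript and coding sequence are counted over different lengths. TE in this column ran from -1.50 for MRPL37, a mitochondria-specific protein of the large subunit, to 4.02 for MRPS21, the counterpart of a small bacterial protein, leaving out MRPL33, whose RNA is at the floor. MRPS14 (3.19) came next below MRPS21, followed by MRPS36 and MRPL52 (2.93). The median TE of the members was 1.15 and 1.23 in the proliferating columns, 0.84 in quiescent, 0.64 in pre-senescent, 0.73 in senescent and 0.83 in transformed cells, and that of all genes was 0.35, 0.40, 0.31, 0.22, 0.32 and 0.34 in the same order. The members therefore stayed above the typical gene in TE in every column, by a smaller margin in the altered conditions.

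**Figure D1:**
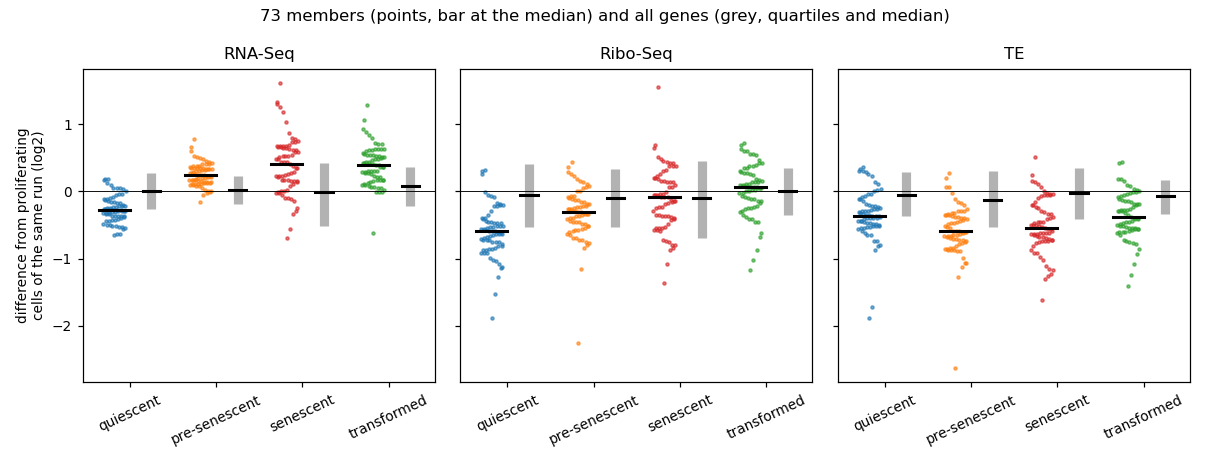
Log2 difference of each of the 73 members from proliferating cells of the same run (vertical axis) in RNA-Seq, Ribo-Seq and TE for the 4 conditions (horizontal axis); points are genes, black bars medians, and grey bars the quartiles of all 9699 genes with their median. RNA medians lie at -0.28, 0.25, 0.41 and 0.40 from quiescent to transformed, whereas all 4 TE medians lie below 0. The sign of the quiescent and senescent RNA medians depends on the control column.

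Quiescence addressed how serum withdrawal changed each layer. The members stood slightly lower in RNA (median -0.28, all genes 0.00) and lower still in Ribo-Seq (median -0.59, all genes -0.05). In RNA, 63 members were below their proliferating level (49.7% of all genes) and 3 were at least 1.5-fold lower (8.73%), namely MRPL39, MRPS9 and MRPS18C, with none 1.5-fold higher (10.7%). In Ribo-Seq 70 members were below it (52.9%) and 39 at least 1.5-fold lower (22.1%), and none was 1.5-fold higher (18.7%). For TE, 61 members were below 0 (54.3%), but no more than 11 were at least 1.5-fold lower, a share close to the 13.8% of all genes, and none was 1.5-fold higher (11.5%). In 61 members RNA and Ribo-Seq were both below the proliferating level (38.0%), and in 8 RNA was above and Ribo-Seq below it (14.4%). The quiescent profile was thus a small shift of most members in each layer that added up in Ribo-Seq. With the proliferating column of run 2 as the control the median difference was 0.12 in RNA, -0.27 in Ribo-Seq and -0.36 in TE, so that the direction in RNA depended on the control and that in TE did not.

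MRPL11, the counterpart of a protein at the base of the factor-binding stalk, had one of the lowest TE differences in quiescence. Its RNA was 33.23 FPKM in proliferating and 29.71 in quiescent cells, and its Ribo-Seq level was 52.16 and 25.59. RNA was nearly level while Ribo-Seq was lower, which gave a TE difference of -0.87. MRPL18, related to the bacterial protein that holds the small rRNA of the large subunit, went from 70.09 to 56.20 FPKM in RNA and from 136.23 to 62.29 in Ribo-Seq, a TE difference of -0.81. MRPL21 went from 20.04 to 16.37 FPKM in RNA and from 57.42 to 27.14 in Ribo-Seq, a TE difference of -0.79. All of these also stood lower in the run 2 proliferating column than in run 1, to 33.94, 82.29 and 32.29 FPKM in Ribo-Seq. Their TE in that column was 0.68, 0.71 and 0.88, against -0.22, 0.15 and 0.73 in quiescence. The lower TE of MRPL21 was therefore small against the run 2 control.

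Pre-senescent cells had slightly more member RNA and less Ribo-Seq signal. The median difference was 0.25 in RNA (all genes 0.02), -0.31 in Ribo-Seq (all genes -0.10) and -0.60 in TE. Only MRPL11, MRPL54, MRPS9 and MRPS26 were below 0 in RNA (44.2%), and no member was 1.5-fold lower (6.64%). MRPL35, MRPL36 and MRPL52 were at least 1.5-fold higher in RNA (5.65%). In Ribo-Seq 59 members were below 0 (55.5%), 14 were at least 1.5-fold lower (22.8%) and none was 1.5-fold higher (15.9%). For TE, 69 members were below 0 (57.3%), 38 were at least 1.5-fold lower (22.5%) and none 1.5-fold higher (14.2%). RNA above and Ribo-Seq below the proliferating level occurred together in 54 members (25.8% of all genes), more than in any other condition, and both were below it in 4 (29.1%). The share over all genes was also the highest of the 4 conditions. Over all genes, Pearson's r of the RNA and Ribo-Seq differences was 0.44 here, against 0.70 in quiescence, 0.83 in senescence and 0.84 after transformation. All genes also shifted in TE here, and relative to their median of -0.13 the count of members at least 1.5-fold lower was 23. With the run 2 control the median TE difference was -0.50, that of RNA 0.65 and that of Ribo-Seq 0.14, so the sign of the Ribo-Seq median also rested on the control.

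MRPL42, a mitochondria-specific protein, had a TE difference of -1.27 in pre-senescent cells. Its RNA was 16.08 FPKM in proliferating and 17.44 in pre-senescent cells, and its Ribo-Seq level was 26.93 and 12.10. The Ribo-Seq level was 49.19 FPKM in the run 2 proliferating column, so this gene varied between control cultures by nearly as much. MRPS28 had 23.21 and 31.54 FPKM in RNA and 81.77 and 50.75 in Ribo-Seq, a TE difference of -1.13. MRPL27, the counterpart of a protein near the peptidyl transferase centre, and MRPL47 followed with -1.07 and -1.06. At the other end MRPS24 (0.27) and MRPL20 (0.20) stood above 0, and each was higher in Ribo-Seq than in either proliferating column, with 205.90 FPKM against 152.21 and 132.55 for MRPS24 and 149.90 against 116.48 and 100.91 for MRPL20. In TE both lay below the run 2 control, with 0.37 against 0.43 for MRPS24 and 0.50 against 0.54 for MRPL20.

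Senescent cells had member RNA at a median difference of 0.41 (all genes -0.00) and Ribo-Seq at -0.09 (all genes -0.10), which left TE at -0.55. In RNA 13 members were below 0 (50.1%), 25 were at least 1.5-fold higher (18.5%) and MRPL23 alone was 1.5-fold lower (22.4%). In Ribo-Seq 46 members were below 0 (54.9%), 10 were at least 1.5-fold lower (29.0%), and MRPL32, MRPL36 and MRPS22 were at least 1.5-fold higher (20.7%). For TE, 67 members were below 0 (51.8%), 34 were at least 1.5-fold lower (17.6%) and none was 1.5-fold higher (13.8%). In 33 members RNA was above and Ribo-Seq below the proliferating level (13.8%), and 13 were below it in both (40.7%). With the run 1 control the RNA median was -0.008, the Ribo-Seq median -0.42 and the TE median -0.39. With S.rp and C3.rp exchanged, as their condition labels would have it, the TE median was -0.28 and 25 members were at least 1.5-fold lower. That exchange would set Ribo-Seq against RNA over all genes, since it reverses the sign of their r.

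MRPS12, the counterpart of a protein of the decoding centre, showed the senescent pattern clearly. Its RNA was 24.30 FPKM in proliferating and 40.29 in senescent cells, while its Ribo-Seq level was 51.66 and 34.82, and TE differed by -1.30. MRPL53, MRPL41 and MRPL43, all mitochondria-specific, had TE differences of -1.23, -1.25 and -1.17. MRPL41 RNA was 25.10 and 45.83 FPKM and its Ribo-Seq level 102.66 and 78.54. In these genes RNA was higher and Ribo-Seq lower in senescent cells. MRPL52 had the largest RNA difference, 1.61, with 29.85 FPKM in proliferating and 91.35 in senescent cells, and its Ribo-Seq level went from 237.10 to 325.54. MRPL36 (1.33) and MRPS24 followed in RNA. MRPL23, in contrast, had 32.18 and 19.99 FPKM in RNA and 66.46 and 25.96 in Ribo-Seq, and so stood lower in both layers.

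Transformed cells resembled senescent cells in RNA (median 0.40, all genes 0.08) with a Ribo-Seq median of 0.06 (all genes 0.00). In RNA 4 members were below 0 (40.8%), 16 were at least 1.5-fold higher (13.1%) and MRPL54 alone was lower (11.5%), with 27.80 FPKM in proliferating and 18.04 in transformed cells. In Ribo-Seq 28 members were below 0 (48.6%), 5 were at least 1.5-fold lower (15.6%) and 5 higher (13.5%). For TE, 63 members were below 0 (57.1%), 15 were at least 1.5-fold lower (10.6%) and none higher (5.17%). In 24 members RNA was above and Ribo-Seq below the proliferating level (16.9%), and in 4 both were below it (31.4%). The run 1 control gave an RNA median of 0.015, a Ribo-Seq median of -0.34 and a TE median of -0.31. With S.rp and C3.rp exchanged the TE median was -0.28 and 13 members were at least 1.5-fold lower. MRPL34 and MRPL14, both with bacterial counterparts, had TE differences of -1.24 and -1.09. MRPL34 RNA was 21.74 and 25.28 FPKM, whereas its Ribo-Seq level was 55.82 and 27.47. MRPL14 RNA was 34.24 and 56.04 FPKM and its Ribo-Seq level 133.25 and 102.79. Set directly against transformed cells, senescent cells differed by a median of -0.01 in RNA, -0.14 in Ribo-Seq and -0.13 in TE (all genes -0.08, -0.09 and 0.03). In this contrast 6 members were at least 1.5-fold lower in RNA (26.8%) and 6 higher (18.2%), and 13 were lower in Ribo-Seq (29.8%) and 2 higher (22.7%). In TE 8 members were at least 1.5-fold lower (11.6%) and MRPS18B was higher (14.2%). The TE shares lie at or below those of all genes.

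**Figure D2:**
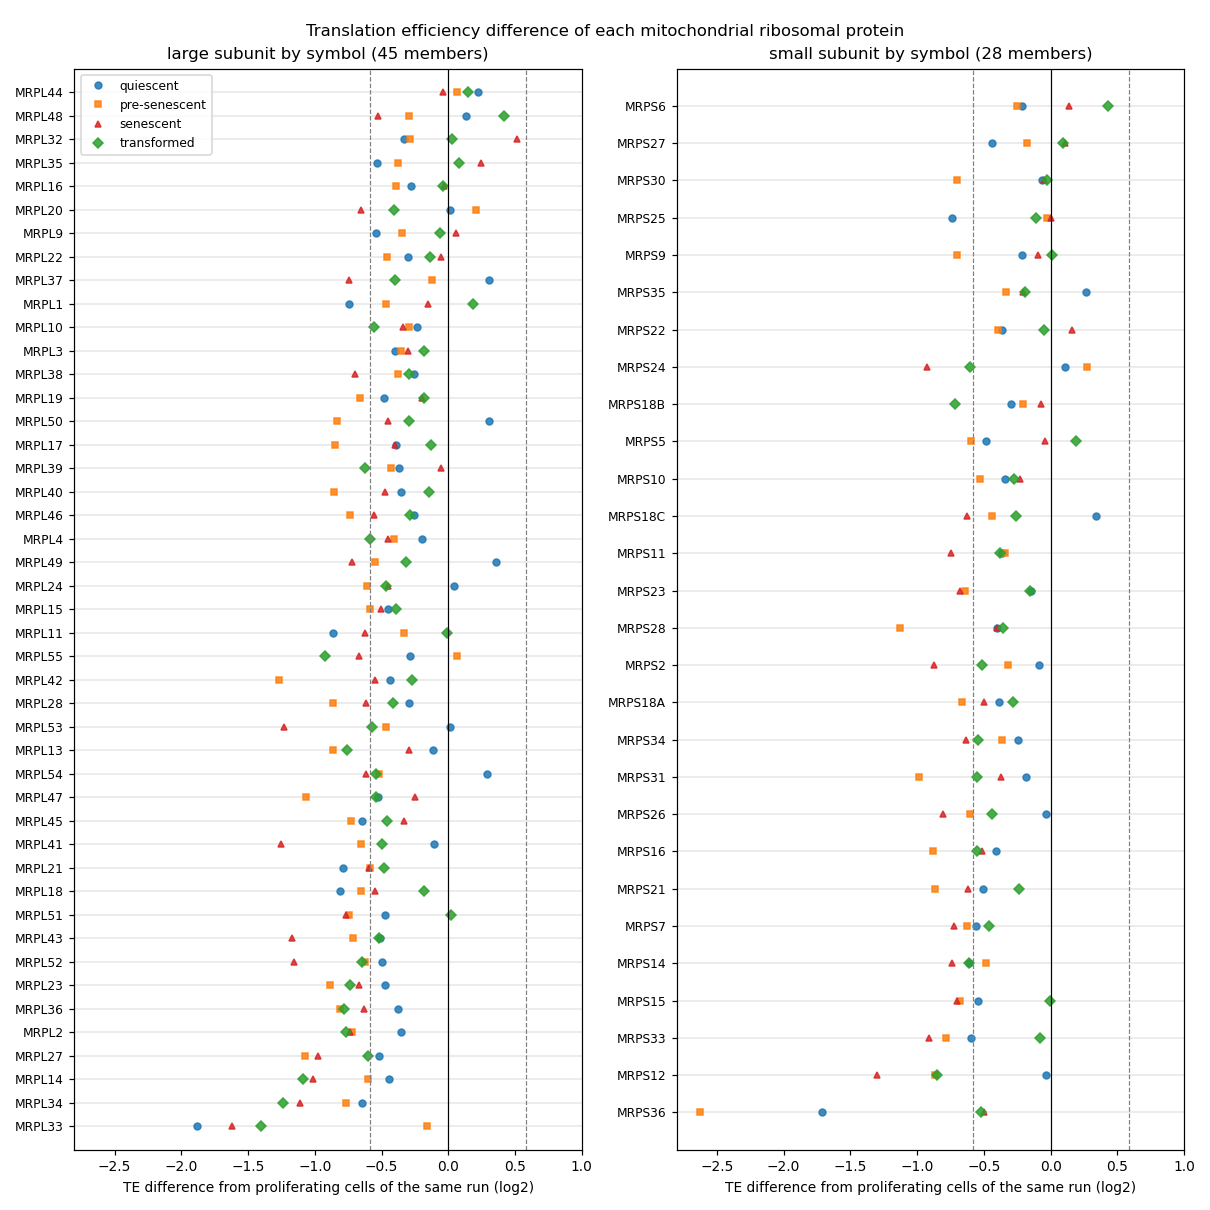
TE difference (log2, horizontal axis) of each member (vertical axis, ordered by the median over conditions) from proliferating cells of the same run; each point is 1 condition and dashed lines mark 1.5-fold. Of the 73 members, 50 have all 4 points left of 0, and none has a point beyond 1.5-fold higher.

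Lower TE in all 4 conditions was found in 50 of 73 members (19.3% of all genes), the conditions of each run sharing a control column. TE lay below both proliferating columns in 45 members in quiescence (38.8%), 59 in pre-senescence (45.5%), 54 in senescence (38.2%) and 50 after transformation (38.0%). A stricter count required TE in all 4 conditions to lie below both proliferating columns, and 24 members met it (9.24%): MRPL3, MRPL10, MRPL14, MRPL15, MRPL18, MRPL19, MRPL22, MRPL27, MRPL34, MRPL38, MRPL39, MRPL40, MRPL45, MRPL46, MRPL47, MRPL52, MRPS2, MRPS7, MRPS10, MRPS14, MRPS16, MRPS21, MRPS28 and MRPS36. They include MRPL45, which docks the ribosome to the inner membrane, and MRPL14, where the assembly factor MALSU1 binds. The same count held 23 of 81 cytosolic ribosomal proteins and 38 of 75 respiratory chain subunits. At least 1.5-fold lower TE in both quiescence and senescence was found in 6 members (3.89%), namely MRPL11, MRPL21, MRPL33, MRPL34, MRPS14 and MRPS33. For MRPL33 the quiescent value is that of Ribo-Seq alone, since its RNA was at the floor in both columns. The quiescent call was made against run 1. MRPL21 and MRPL34 had a quiescent TE of 0.73 and 1.19, closer to the run 2 control at 0.88 and 1.36.

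The exceptions to a lower TE changed from condition to condition. In quiescence 12 members had a TE difference of 0 or more, led by MRPL49 (0.36), MRPS18C (0.34), MRPL37 (0.31), MRPL50 (0.30) and MRPL54 (0.29). In senescence 6 did, namely MRPL32 (0.51), MRPL35 (0.24), MRPS22 (0.16), MRPS6 (0.13), MRPS27 (0.10) and MRPL9 (0.06). No gene was in both groups, but groups of 12 and 6 members leave little room for a shared gene. Over all genes 24.5% were at 0 or above in both conditions. That share is not a like comparison, since only 54.3% of all genes were below 0 in quiescence and 51.8% in senescence. Whether the empty overlap is a trait of the members was not tested. Pre-senescent cells had 4 exceptions, MRPS24, MRPL20, MRPL44 and MRPL55. Across the 4 conditions 15 members were at 0 or above once (22.6%) and 8 at least 2 times (58.1%), the latter being MRPL20, MRPL32, MRPL35, MRPL44, MRPL48, MRPS6, MRPS24 and MRPS27.

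Of the 12 quiescent exceptions, 10 were at 0 or above against the run 1 control but below the TE of the run 2 control. MRPS18C, a member of the S18 family that has several copies in mitochondria, had 8.26 FPKM of RNA in proliferating and 5.31 in quiescent cells of run 1 and 29.74 and 24.19 in Ribo-Seq. In the run 2 proliferating column the same gene had 93.98 FPKM in Ribo-Seq, and its TE there was 3.43 against 1.85 in run 1 and 2.19 in quiescence. MRPL49 had a Ribo-Seq level of 41.91 in proliferating cells of run 1, 52.49 in quiescent cells and 79.02 in proliferating cells of run 2. MRPL50 had 15.92, 19.12 and 44.24 FPKM in the same columns. In TE each of these lay above the run 1 control and below the run 2 control in quiescence. Only MRPL44 and MRPL53 had a TE above both controls in quiescence (27.9% of all genes), MRPL44 and MRPL55 in the pre-senescent state (29.0%), MRPL35 and MRPS22 in senescence (35.9%), and MRPL1, MRPL35, MRPL44, MRPL48, MRPL51 and MRPS6 after transformation (28.6%).

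MRPL44, a protein with a fold of the RNase III family, was the most frequent exception, at or above 0 in 3 of the 4 conditions. Its RNA was 15.86 and 16.73 FPKM in the proliferating columns, 13.11 in quiescent, 18.56 in pre-senescent, 21.22 in senescent and 16.89 in transformed cells. In Ribo-Seq it had 34.19 and 36.28 FPKM in proliferating cells, then 33.03, 41.89, 44.82 and 40.59. Ribo-Seq therefore followed RNA, and TE stayed between 1.08 and 1.33 in all 6 columns. MRPL32, whose cleavage by an inner-membrane protease is a step of ribosome assembly, had 28.56 FPKM of RNA in proliferating and 58.58 in senescent cells and 80.09 and 234.28 in Ribo-Seq. Its Ribo-Seq difference of 1.55 was the highest of the members in senescence, but the run 1 control stood at 156.77 FPKM, and TE was 2.19 there against 2.00 in senescent cells. MRPS6 and MRPL48 had the highest TE differences in transformed cells, 0.43 and 0.42. MRPS6 Ribo-Seq was 124.17 FPKM in transformed cells and between 75.08 and 89.50 in the other 5 columns. Its RNA was also highest in transformed cells, with 83.20 FPKM against 63.22 to 69.76 in the other 5 columns. The TE of MRPS6 was 0.58 in transformed cells, 0.15 in the run 2 control and 0.50 in the run 1 control.

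MRPS36 and MRPL33 each had TE differences below those of all other members in some of the conditions. MRPS36, now known as a subunit of the mitochondrial alpha-ketoglutarate dehydrogenase complex and not of the ribosome, had an RNA level of 10.24 and 9.54 FPKM in the proliferating columns, 11.67 in quiescent, 13.27 in pre-senescent, 13.36 in senescent and 13.42 in transformed cells. Its Ribo-Seq level was 81.66 and 76.04 FPKM in proliferating, 75.51 in senescent and 74.45 in transformed cells, but 28.32 in quiescent and 17.17 in pre-senescent cells. The quiescent and pre-senescent values stood apart from the other 4, with TE differences of -1.72 and -2.62 against -0.50 and -0.52. In senescent and transformed cells the lower TE came with RNA differences of 0.49 in each and Ribo-Seq differences of -0.01 and -0.03. MRPL33 RNA was at the floor of 1.00 FPKM in all 3 columns of run 1 and at 12.04, 28.67 and 17.43 FPKM in proliferating, senescent and transformed cells of run 2, while its Ribo-Seq level was 28.50, 7.75 and 25.51 FPKM in run 1 and 34.65, 26.91 and 19.01 in run 2. Its TE in run 1 is thus set by a floor and has no meaning as a level, and its quiescent TE difference of -1.88 is that of Ribo-Seq alone. Its TE in run 2 differed by -1.62 in senescence and -1.40 after transformation, the lowest of the members in each.

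**Figure D3:**
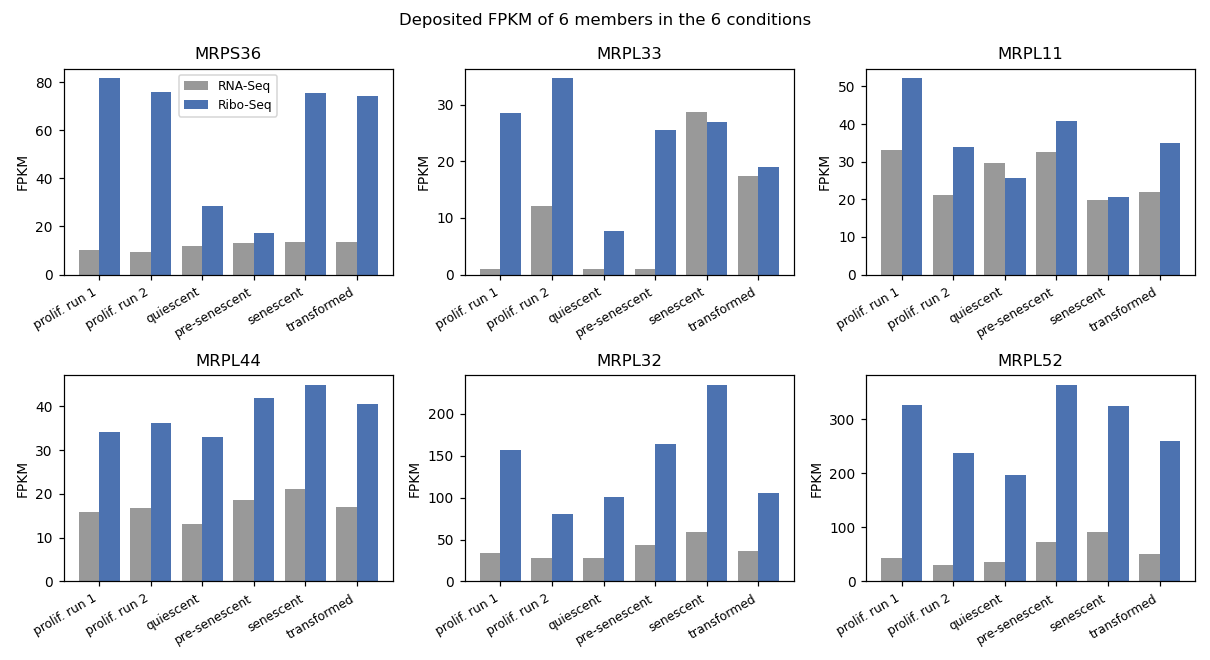
Deposited FPKM (vertical axis, linear from 0) of 6 members in the 6 conditions (horizontal axis), with RNA-Seq in grey and Ribo-Seq in blue; a bar is 1 column of the table and has no error. MRPS36 Ribo-Seq forms 4 columns at 74.45 to 81.66 FPKM and 2 at 28.32 and 17.17, MRPL33 RNA is at 1.00 in the 3 columns of run 1, and MRPL44 Ribo-Seq stays between 33.03 and 44.82.

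The large and small subunits were described side by side, since a ribosome needs both. Their median TE differences were -0.37 and -0.35 in quiescence, -0.59 and -0.60 in pre-senescence, -0.55 and -0.51 in senescence and -0.40 and -0.28 after transformation. The gap was at most 0.12, and between the proliferating columns it was -0.05. No test was made. At least 1.5-fold lower TE was found in 7 of 45 large and 4 of 28 small subunit members in quiescence (13.8% of all genes), 23 and 15 in pre-senescence (22.5%), 21 and 13 in senescence (17.6%) and 11 and 4 after transformation (10.6%). TE lay below both proliferating columns in all 4 conditions in 16 large and 8 small subunit members (9.24% of all genes). In RNA the subunits lay at -0.26 and -0.29, 0.21 and 0.29, 0.34 and 0.48, and 0.39 and 0.40 in the same order of conditions. For all members the sign of the quiescent and senescent RNA medians depended on the control, as above. With the run 2 control the pre-senescent gap was 0.25, the large subunit being the higher, so the small gap there also depended on the control. MRPS30 and MRPS18A carry small subunit names but are known to sit in the large subunit, and counting them there changed none of the 4 gaps in median TE difference by more than the spread between the control columns.

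**Figure D4:**
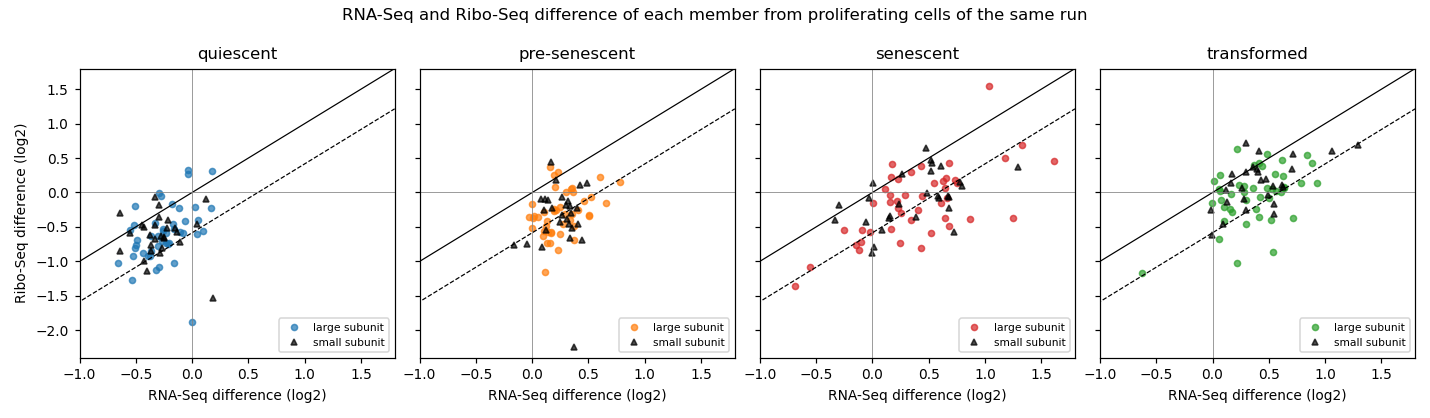
Ribo-Seq against RNA-Seq difference (both log2) of each member from proliferating cells of the same run, in 4 panels by condition; circles are large and triangles small subunit members, the solid line marks equal differences and the dashed line a TE 1.5-fold lower. In pre-senescent cells 54 of 73 members lie at the lower right, with RNA above and Ribo-Seq below 0, and the subunits are intermixed in every panel.

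Members with a bacterial counterpart (43) and mitochondria-specific members (30) were likewise close, with median TE differences of -0.40 and -0.26 in quiescence, -0.59 and -0.61 in pre-senescence, -0.55 and -0.54 in senescence and -0.40 and -0.29 after transformation. The order of members within the family was little shared between conditions of different runs. How much of this comes from the spread of single columns was not tested. Between contrasts that share no column, Pearson's r of the TE difference over the 73 members was 0.10 for quiescence and senescence (Spearman's rho -0.01), 0.19 for quiescence and transformation (rho -0.03), 0.13 for pre-senescence and senescence (rho 0.18) and 0.13 for pre-senescence and transformation (rho 0.19). These values include MRPL33, whose quiescent TE difference is that of Ribo-Seq alone. For RNA in pre-senescence and senescence r was 0.41. These correlations describe genes of shared libraries, which are not replicates.

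Other genes of the pathway were read from lists by function. The 7 mitoribosomal proteins named outside the symbol rule (DAP3, PTCD3, CHCHD1, AURKAIP1, GADD45GIP1, ICT1 and MRP63) had median TE differences of -0.26, -0.36, -0.65 and -0.37 from quiescence to transformation, and 1, 1, 4 and 1 of them were at least 1.5-fold lower. The shares of all genes at least 1.5-fold lower were 13.8%, 22.5%, 17.6% and 10.6%. Single genes in a list this short carry no weight beside these shares. Mitochondrial translation factors (11 in the table) had medians of -0.39, -0.61, -0.19 and -0.19, with 3, 6, 1 and 0 at least 1.5-fold lower beside the same shares of all genes. Factors of ribosome assembly and rRNA maturation (19) had -0.21, -0.26, -0.15 and -0.06. The 13 genes of mitochondrial transcription and RNA processing had -0.32, -0.37, 0.01 and 0.09, and the 16 mitochondrial aminoacyl-tRNA synthetases, which charge the transfer RNAs, had -0.13, 0.09, 0.06 and 0.02. The proteins of the ribosome itself thus had lower medians in senescence and transformation than the factors and enzymes that serve it, a comparison of medians with no test.

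The closest comparison was with the nuclear-encoded subunits of the respiratory chain and ATP synthase, whose partners mitochondrial ribosomes make. Their 75 genes had median TE differences of -0.30, -0.56, -0.57 and -0.38, close to those of the members. In RNA they stood at -0.07, 0.24, 0.82 and 0.24, and 56 of 75 were at least 1.5-fold higher in senescence against 25 of 73 members (18.5% of all genes). Cytosolic ribosomal proteins (81) lay further from the members in quiescence and after transformation. Their median TE difference was -1.10 in quiescence, where 75 were at least 1.5-fold lower (13.8% of all genes), and -0.04 after transformation, where 1 was (10.6%), while in pre-senescence and senescence it was -0.62 and -0.65. Their median RNA difference stayed between 0.02 and 0.19.

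Genes with the TE pattern most like a member's over the 6 columns were sought by Pearson's r for the lowest and the highest members in quiescence, leaving out MRPL33, whose TE in run 1 was set by the floor. MRPL11 was most like RPL11 (0.99), a cytosolic ribosomal protein, ZFAND1 (0.98) and RPL27A (0.97). MRPS36 was most like UBE2E1 (1.00), NGLY1 (1.00) and VTA1 (1.00). MRPL49 was most like CAB39L (1.00), WBP2 (0.99) and LACE1 (0.99), MRPS18C most like RPA3, NKAP and GSTM3 (each 1.00), and MRPL37 most like THAP4 (0.99), CBFA2T2 (0.98) and CKS2 (0.97). With 6 points and 9699 genes such values are common, and each of these members had 18 to 134 genes at 0.95 or above.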

How the data were processed

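The table was deposited by the authors as FPKM. Per the study's methods and labels, 50-nt reads were aligned with Bowtie to 1 protein-coding transcript per gene (Ensembl release 65, hg19), unique reads were kept, and reads were counted over the transcript for RNA-Seq and over the coding sequence for Ribo-Seq. The authors set every FPKM below 1 to 1.0, which held 2.56% to 5.73% of genes in a column. The columns of proliferating run 1 and of quiescence in both assays, and of pre-senescence in RNA-Seq, combine replicates. The table holds no read counts, and the library totals that the study lists were not used here, so no counting error is given.

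Log2 differences were taken without a pseudocount from the proliferating column of the same run, and TE was log2 Ribo-Seq minus log2 RNA FPKM (Python 3.11.15, numpy 2.4.6, pandas 2.3.3, matplotlib 3.10.9). With 1 column per group no test was made. A difference of 1.5-fold was used as the size to count, beside its share over all 9699 genes. Unequal coverage along transcripts, reads at start codons and shared paralogue reads can move FPKM, and unique alignment can lower genes with pseudogene copies.

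Members and lists were chosen with earlier results of these data known. Members were named by a rule: the 5 lowest and 5 highest in TE difference and the 3 lowest and highest in RNA and Ribo-Seq in each contrast, the extremes of level, and members past the fold, or at 0 or above, in both quiescence and senescence. Others named were chosen after their values were seen. The respiratory chain list, taken by symbol pattern, also holds ATP5SL and COX4NB. The calculation was tested on simulated data. A further knockdown target is not reported here.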

Additional observations from a re-analysis of the deposited data

Results flagged for a closer look

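The median RNA difference of the 73 members had opposite signs in quiescence (-0.28) and senescence (0.41). The difference between them was not tested, since each value comes from single columns. It does not hold with the proliferating column of the other run as the control, where the medians are 0.12 and -0.008.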

How the results depend on the processing

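Of 162 alternatives for 20 results, 144 stayed within the spread of the control columns (or within 1.5 times a count), 13 moved and 5 reversed. The cause was not tested beyond what the alternative itself changes. Results near 0 also changed sign within that spread and were not counted as reversed. Examples are the senescent Ribo-Seq median, from -0.09 to 0.02 when centred on all genes, and the quiescent large minus small difference, from -0.02 to 0.11 with the run 2 control. The median TE difference stayed below 0 under every alternative run, from -0.36 to -0.31 in quiescence, -0.60 to -0.47 in pre-senescence, -0.55 to -0.28 in senescence and -0.38 to -0.28 after transformation. The values of -0.28 in senescence and after transformation arose with S.rp and C3.rp exchanged, which would reverse the sign of r between the assays in senescence. Without that exchange these ranges ended at -0.39 and -0.31. With it the large minus small subunit difference in senescence was 0.21, reversed from -0.05. Counts of members with lower TE depended on the fold used. At 1.3-fold they were 33 in quiescence and 37 after transformation, and at 2-fold they were 2 in quiescence, 5 in pre-senescence, 8 in senescence and 3 after transformation. Centring on all genes gave 23 in pre-senescence. With the control of the other run the quiescent count was 20, the RNA medians were 0.12 in quiescence (reversed), 0.65 in pre-senescence, -0.008 in senescence (reversed) and 0.015 after transformation, the Ribo-Seq medians were 0.14 in pre-senescence (reversed), -0.42 in senescence and -0.34 after transformation (reversed), and the large minus small difference was 0.25 in pre-senescence. Leaving out MRPL33 and exchanging S.rp and C3.rp were chosen after seeing the data. No paired analysis was possible because the columns carry no replicate numbers. For the same reason no replicate could be left out.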
